A study of Mus musculus with 5 samples.

Results

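The transcription factors that set up and maintain the neural retina were measured by messenger RNA sequencing in sorted cells of the newborn mouse eye. The members are 10 genes of 24594 in the deposited table, picked by symbol: Pax6, Rax, Six3, Six6 and Lhx2, which encode homeodomain proteins of the eye field, the HMG-box genes Sox2 and Sox9, the orphan nuclear receptor gene Nr2e1, and Meis1 and Meis2, which encode homeodomain proteins of the TALE class. All 10 passed the filter on low values. Pups received a plasmid by electroporation in vivo on postnatal day 0, either CAG-GFP (the control, 2 libraries) or CAG-Zfp292 (3 libraries labelled Zfp292-OE), and retinas were collected 4 days later. CAG is a promoter active in most cell types, so the construct itself does not restrict expression to one class of cell. Both groups share the electroporation and the sorting of cells by GFP; RPC is the name the labels give to the sorted cells. The sources used here do not give the strain or how GFP was supplied alongside Zfp292. They also do not say whether libraries of a group came from different animals, and the spread that enters each p-value is only that among these libraries, which may be technical.

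In the vertebrate eye field these factors work as a network. Pax6, Rax, Six3, Six6 and Lhx2 mark the tissue from the optic vesicle onward, and progenitors keep expressing them with Sox2, Sox9, Nr2e1 and the Meis genes while they divide. Several stay on in particular cells after the last division: Pax6, Six3, Six6 and Meis2 in amacrine cells, and Sox2, Sox9, Lhx2, Rax and Nr2e1 in Müller glia. A level in a bulk library therefore sums several classes of cell, and fewer cells of a type and less RNA per cell cannot be told apart.

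Assigned reads ranged from 103096224 to 137683716 per library. Zfp292 itself did not separate the groups: its normalised read count was 13288 and 14756 in control and 14631, 13197 and 15534 in the 3 others, with a 95% interval of the log2 difference from -0.28 to 0.37. Each direction given here is thus that of the labels. Genes of cycling cells and of some classes of differentiated cells differed widely between the groups, as described after the members.

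None of the identity factors changed past the threshold. Differences were taken as Zfp292-OE minus control after log2(value + 1) and tested in limma, and p-values were adjusted by Benjamini-Hochberg over 16316 genes, with a threshold of 0.05. The test called 0 of 10 members, where 17.4% of all genes tested were called in either direction. Among the 6166 genes whose mean lies between that of the lowest and the highest member, 25.6% were called. The edgeR quasi-likelihood test and DESeq2 on recovered whole reads also called 0 members, against 16.1% and 26.0% of genes. At an unadjusted p below 0.05 limma took 2 of the 10, Meis1 and Nr2e1, and 32.8% of all genes.

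The differences were small as well as uncalled. The median size of the log2 fold change, regardless of sign, was 0.21 over the 10 members, 0.50 over all genes tested and 0.34 over genes in the same range of level. Their standard errors were ordinary for that range, with a median of 0.16 against 0.18. For all 10 members the 95% interval of the difference lay within a 2-fold change in either direction, which held for 41.8% of all genes and for 75.9% of genes in that range of level. The lowest bound of these intervals was -0.62, for Sox9, and the highest 0.96, for Nr2e1. The missing calls do not show that the levels were equal: a rise of up to 1.95-fold in Nr2e1 or a fall to 0.651-fold in Sox9 lies within those intervals. With 1 library left out, intervals passed 2-fold for Sox9 (without control library 1), for Sox2, Sox9 and Nr2e1 (without control library 2), for Nr2e1 (without library 1 labelled Zfp292-OE) and for Sox2 and Nr2e1 (without library 3 labelled Zfp292-OE). With all 5 libraries the upper bound of Nr2e1 passed it after quantile normalization (1.01). That bound was 1.1 with a replicate block. Library 3 labelled Zfp292-OE, with no control of its number, does not enter the difference there.

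**Figure D1:**
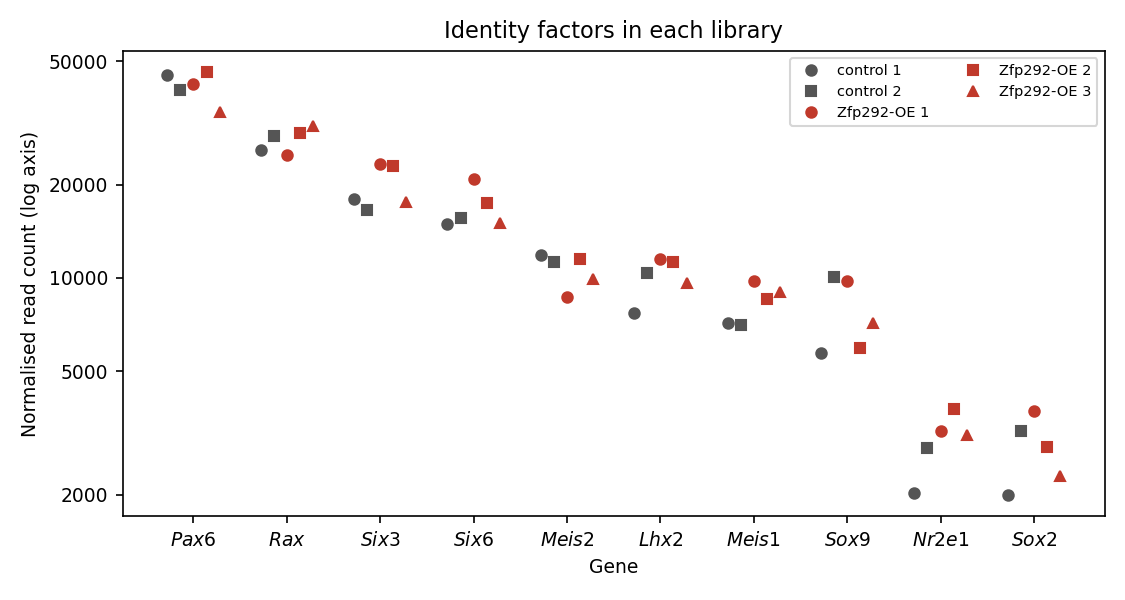
Normalised read count on a log axis for each of the 10 identity factors, 1 point per library (grey, 2 control libraries; red, 3 libraries labelled Zfp292-OE). The red and grey points are interleaved for 8 genes, and lie apart for Meis1 and Nr2e1, where all 3 red points are above both grey ones.

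Pax6, the paired and homeodomain factor at the head of eye development (Entrez 18508, GRCm38.p6 chromosome 2, 105668896 to 105698410), reached a normalised read count of 45173 in control library 1 and 40375 in control library 2. The libraries labelled Zfp292-OE, here and below in the order 1, 2, 3, had 42295, 46183 and 34287. The groups overlapped, and the lowest and the highest library both carried the Zfp292-OE label. Control averaged 42774 ± 3393 (SD, n = 2) and Zfp292-OE 40922 ± 6065 (SD, n = 3), which limma put at -0.07 on the log2 scale (SE 0.16, 95% interval -0.42 to 0.28) with an adjusted p of 0.78.

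Rax, a homeodomain factor needed for eye formation and progenitor proliferation (Entrez 19434, chromosome 18, 65934639 to 65939089), had 25856 and 28649 in control. The libraries labelled Zfp292-OE had 24887, 29394 and 30804, so one lay below and the other two above both controls. The log2 fold change was 0.05 (SE 0.15, interval -0.27 to 0.38), with a limma adjusted p of 0.83. Among the eye field genes Pax6 and Rax had the log2 fold changes nearest 0, and in library 3 labelled Zfp292-OE they stood at opposite ends, with Pax6 lowest and Rax highest of the 5 libraries.

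Six3 and Six6 are sine oculis homeodomain repressors, Six3 acting in the forebrain and eye field and Six6 in retina and pituitary. Six3 (Entrez 20473, chromosome 17, 85613608 to 85626191) had 17944 and 16590 in control against 23271, 22893 and 17568 in the libraries labelled Zfp292-OE. Six6 (Entrez 20476, chromosome 12, 72939882 to 72944899) had 14934 and 15668 against 20925, 17394 and 15032. In both genes libraries 1 and 2 labelled Zfp292-OE were above both controls and library 3 fell between them. The log2 fold changes were 0.29 (SE 0.16, interval -0.07 to 0.65) for Six3 and 0.20 (SE 0.16, interval -0.16 to 0.57) for Six6, with limma adjusted p-values of 0.24 and 0.42.

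Lhx2, a LIM-homeodomain factor required for the optic vesicle and later for Müller glia (Entrez 16870, chromosome 2, 38339271 to 38369737), had 7713 and 10350 in control. It had 11536, 11288 and 9659 in the libraries labelled Zfp292-OE. Control library 1 was the lowest of the 5, and library 3 labelled Zfp292-OE lay between the controls. The log2 fold change was 0.27 (SE 0.17, interval -0.11 to 0.66), with a limma adjusted p of 0.31. It was 0.06 without control library 1 and 0.48 without control library 2.

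The SOX factors varied more within a group than between groups. Sox2, which keeps neural progenitors competent (Entrez 20674, chromosome 3, 34649995 to 34652461), had 1994 and 3209 in control and 3724, 2853 and 2303 in the libraries labelled Zfp292-OE. Sox9, a factor of progenitors and Müller glia (Entrez 20682, chromosome 11, 112782210 to 112787757), had 5711 and 10060 in control and 9805, 5950 and 7137 in the others. Both were high in control library 2 and in library 1 labelled Zfp292-OE. Sox9 differed 1.76-fold between the controls, the widest gap of any member, and Sox2 differed 1.61-fold.

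The log2 fold change was 0.20 for Sox2 (SE 0.27, interval -0.41 to 0.81, limma adjusted p = 0.65) and -0.02 for Sox9 (SE 0.27, interval -0.62 to 0.58, adjusted p = 0.97). These intervals were the widest among the members. Without control library 1 the values were -0.14 and -0.43, and without control library 2 they were 0.54 and 0.39, so which control was kept set the sign of both.

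Nr2e1, also called Tlx, an orphan nuclear receptor that represses transcription and holds neural progenitors in cycle (Entrez 21907, chromosome 10, 42561963 to 42583590), had 2033 and 2820 in control. The libraries labelled Zfp292-OE had 3200, 3775 and 3106. All 3 were above both controls, though control library 2 lay nearer to the lowest of them than to control library 1. Control averaged 2426 ± 557 (SD, n = 2) and Zfp292-OE 3360 ± 362 (SD, n = 3). The log2 fold change of 0.48 (SE 0.21) was the largest of the members, with a limma p of 0.048 and an adjusted p of 0.15 (0.12 to 0.48 over 16 alternatives). It was 0.25 without control library 1 and 0.72 without control library 2.

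Meis1 and Meis2 encode paralogous cofactors of Pbx and Hox proteins that also regulate Pax6. Meis1 (Entrez 17268, chromosome 11, 18880428 to 19019651) had 7142 and 7057 in control, and 9789, 8548 and 8994 in the libraries labelled Zfp292-OE. All 3 were above both controls, which differed by little. Control averaged 7099 ± 60.2 (SD, n = 2) and Zfp292-OE 9110 ± 629 (SD, n = 3), a difference of 0.36 on the log2 scale (SE 0.15, interval 0.03 to 0.69), with a limma p of 0.037 and an adjusted p of 0.13. Over 16 alternatives the adjusted p of Meis1 ranged from 0.058, in DESeq2, to 0.54.

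Meis2 (Entrez 17536, chromosome 2, 115861264 to 116067537) had 11869 and 11252 in control and 8705, 11519 and 9900 in the libraries labelled Zfp292-OE. Libraries 1 and 3 were below both controls and library 2 fell between them. The log2 fold change was -0.21 (SE 0.16, interval -0.57 to 0.15), with a limma adjusted p of 0.39, and it was the most negative value among the members.

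Across the list, 7 members had a positive and 3 a negative log2 fold change, with a median of 0.20 against -0.06 for all genes tested. The count of signs rests on the scaling: with equal library totals, which moved the median of all genes to -0.27, 4 members were positive and the median of the members was -0.01. Such a scaling moves all genes by about the same amount, and relative to the median of all genes Nr2e1 stood at 0.54 and Meis1 at 0.42 as deposited. Quantile normalization, which is not such a shift, also left 4 members positive. The median was then -0.04 over the members and -0.02 over all genes. Groups did not overlap for 2 of the 10 members, compared with 49.9% of all genes tested and 58.1% of genes in the same range of level.

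**Figure D2:**
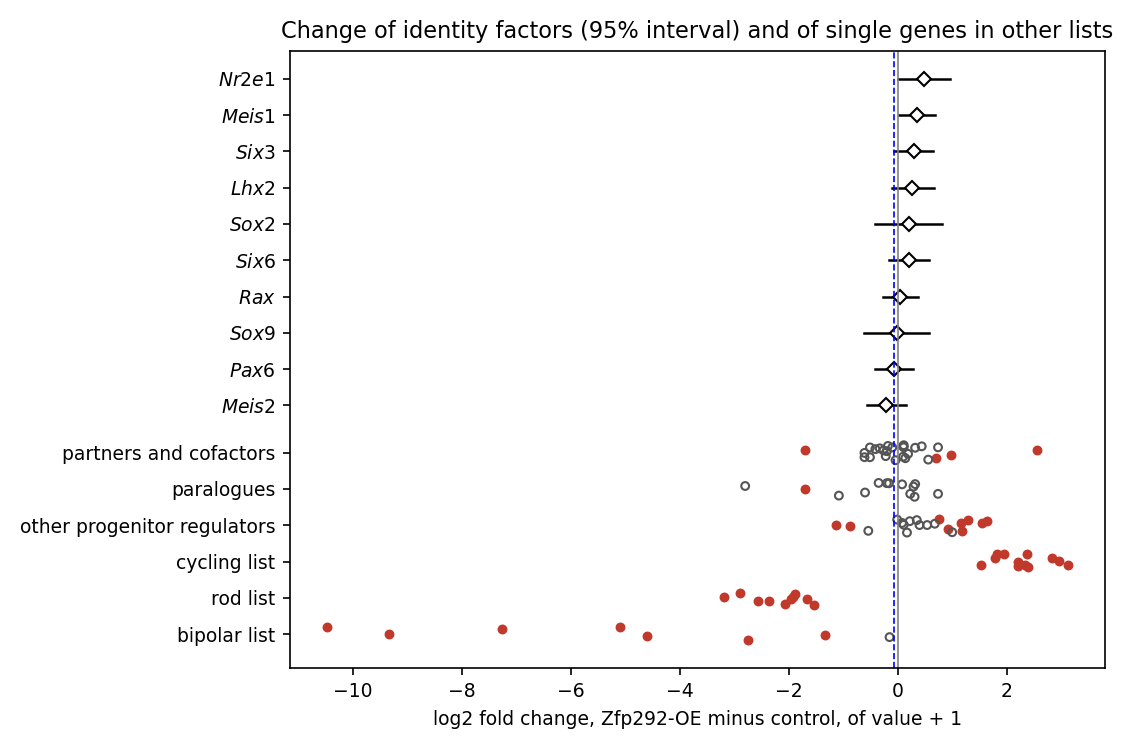
log2 fold change (libraries labelled Zfp292-OE minus control) of the 10 members as diamonds with 95% intervals, and of single genes of 6 other lists as points, filled red where limma called them at an adjusted p below 0.05 and open grey where it did not; the dashed line is the median of all genes tested. Members lie between -0.21 and 0.48, while all genes of the cycling list lie to the right and all of the rod list to the left of them.

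Levels can be compared between members only per length, here the normalised read count per kilobase of exon in protein-coding transcripts (GENCODE M21). Over the 5 libraries the means were 10834 ± 960 (SD, n = 5) for Rax and 6040 ± 685 for Pax6, and the ranges of these did not overlap. Then came Six6 (4188 ± 627), Six3 (3609 ± 582), Lhx2 (3004 ± 456), Meis2 (2449 ± 303), Sox9 (1870 ± 503), Sox2 (1369 ± 337), Meis1 (1100 ± 157) and Nr2e1 (864 ± 184). From Pax6 down, each gene's range over the 5 libraries overlapped that of the next, so these ranges did not separate neighbours. Within a library the order was steadier. By this all-exon length Rax ranked first, Pax6 second, Six6 at place 3 and Nr2e1 last in each of the 5 libraries, of both groups. With the length of the principal transcript in place of all exons, Six3 passed Six6, Meis2 passed Lhx2 and Meis1 rose to place 7. That transcript holds 3.35 of the 7.55 kb of exon in Meis1 and 2.87 of the 6.9 kb in Pax6. With it the means of Rax and Pax6 were 16697 and 14522. Their ranges and their ranks within a library were taken for the all-exon length only, so their order in each library may rest on that length.

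Ratios between members within a library do not depend on the scaling between libraries, and 7 pairs were compared. The log2 ratio of Meis1 to Meis2 was -0.73 and -0.67 in control and 0.17, -0.43 and -0.14 in the libraries labelled Zfp292-OE. The groups did not overlap, and the means differed by 0.57. The log2 ratio of Nr2e1 to Pax6 was -4.47 and -3.84 in control and -3.72, -3.61 and -3.46 in the others, a difference of 0.56 with no overlap, which was 0.24 without control library 1 and 0.87 without control library 2. The gap between the 2 controls there was wider than that between control library 2 and the nearest library of the other group.

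For the other 5 pairs the groups overlapped. Six3 to Six6, paralogues with partly shared roles, had the smallest difference, 0.08, with log2 ratios of 0.26 and 0.08 in control and 0.15, 0.40 and 0.22 in the libraries labelled Zfp292-OE. Rax to Pax6 differed by 0.13, Meis2 to Pax6 by -0.14, Sox2 to Sox9 by 0.22 and Lhx2 to Pax6 by 0.35 (0.05 without control library 1 and 0.64 without control library 2). An exact two-sided permutation test of 2 against 3 libraries has 10 splits and, with the smaller tail doubled, cannot give a p below 0.2. That value was reached by Meis1 to Meis2 and by Nr2e1 to Pax6, with an adjusted p of 0.7 over the 7 pairs.

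**Figure D3:**
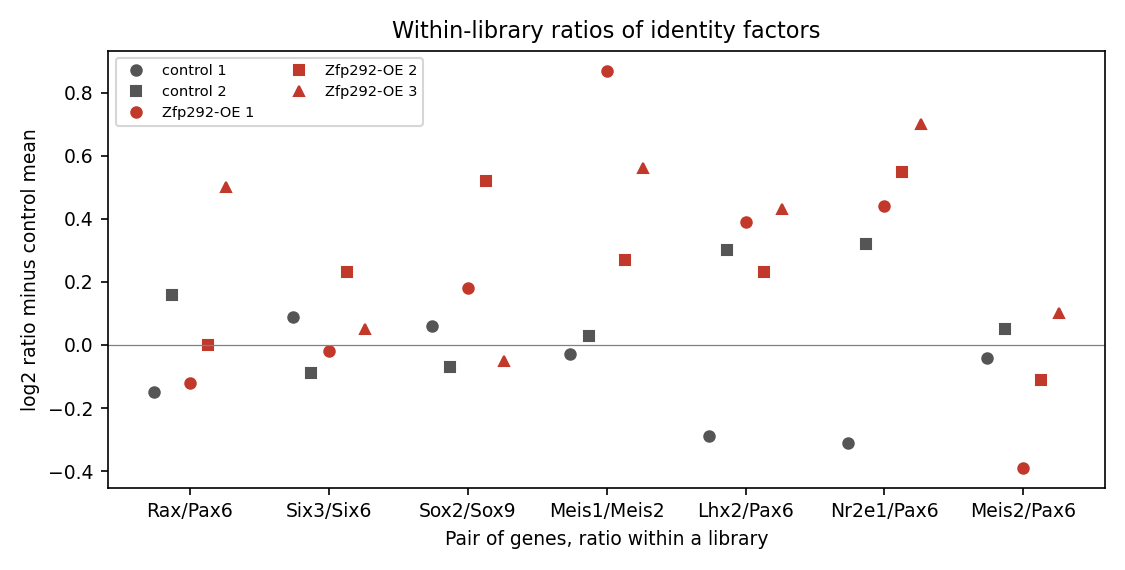
log2 ratio of each pair of members within a library, minus the mean of the 2 control libraries, with 1 point per library (grey, control; red, labelled Zfp292-OE). Red points lie wholly above grey ones for Meis1/Meis2 and Nr2e1/Pax6, and the colours mix for the other 5 pairs.

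Several lists of cell-type markers moved with the groups, where limma called 17.4% of all genes tested. All 12 genes of cycling cells rose in limma, and their summed value was 51525 to 56936 in control and 194789 to 367450 in the libraries labelled Zfp292-OE, while the members summed to 140369 to 146030 and 138790 to 159798. Mki67, a protein of dividing cells, went from 3852 ± 784 (SD, n = 2) to 18290 ± 5526 (SD, n = 3). All 10 rod genes and 7 of 8 bipolar genes fell. Of 12 Müller glia genes 6 fell and 1 rose, with a summed value of 854801 to 1002643 in control and 480461 to 599858 in the others. Of 6 astrocyte genes 4 fell, and of 7 cone genes 4 fell.

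In the amacrine and horizontal list Gad1 fell and Ptf1a rose of 12 genes, a share close to the 17.4% of all genes. The summed values were 35995 to 38439 in control and 24472 to 35576 in the libraries labelled Zfp292-OE. Of 8 ganglion cell genes and 7 microglial genes limma called 0, as did edgeR and DESeq2, with 0 and 1 at an unadjusted p below 0.05. The microglial genes still varied widely, with a median log2 fold change of -1.6. They summed to 2368 and 7748 in control and to 1889, 3071 and 330 in the libraries labelled Zfp292-OE. The part of these shifts in the level of any member was not tested. In the lens list the crystallin Cryaa was at 0 in 4 of 5 libraries, but the filament gene Bfsp2 reached 142, and the 6 genes summed to 106 to 227. In the pigment epithelium list Rpe65 did not exceed 3.14, while Tyrp1 had 54.7 to 670 and Rgr, which Müller glia also express, 1509 to 3015.

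**Figure D4:**
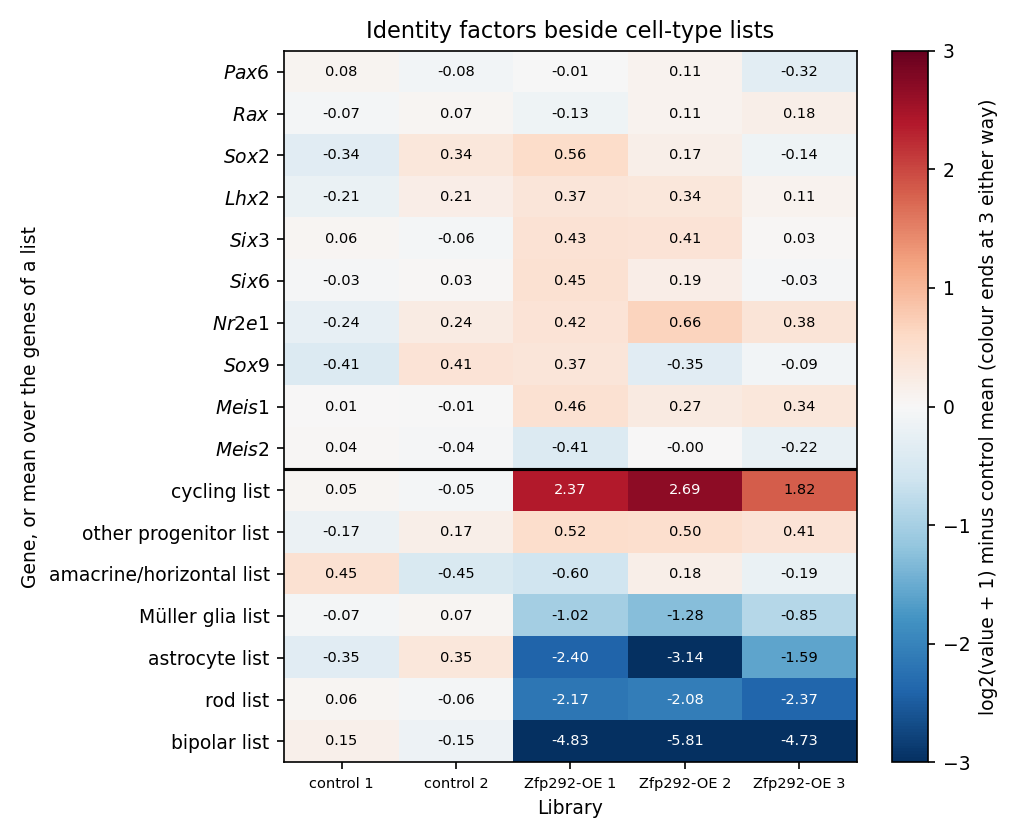
log2(value + 1) minus the control mean in each of the 5 libraries, for the 10 members (above the line) and as the mean over the genes of 7 lists (below it); colour runs from blue (lower) to red (higher). Members stay between -0.41 and 0.66 in every library, while in the libraries labelled Zfp292-OE the cycling list reaches 1.82 to 2.69 and the rod list -2.08 to -2.37.

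Partners and cofactors of the members mostly stayed below the threshold too. In this list of 26 genes 3 rose, 1 fell and 22 missed the threshold, a share close to the 17.4% of all genes. Gmnn, which encodes geminin, a binding partner of Six3 and an inhibitor of replication licensing, had 4107 and 5063 in control and 33827, 35200 and 16363 in the libraries labelled Zfp292-OE. It rose by a log2 fold change of 2.56 (SE 0.29, limma adjusted p = 0.00069), while Six3 itself had 0.29. Geminin accumulates in dividing cells, and Gmnn moved with the cycling list. The histone deacetylase genes Hdac2 and Hdac1, whose products are corepressors of Nr2e1, rose by 0.97 (adjusted p = 0.0026) and 0.70 (adjusted p = 0.029). The groups did not overlap for either.

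Tle2, a Groucho corepressor recruited by Six3 and Six6, fell by 1.71 on the log2 scale (SE 0.50, limma adjusted p = 0.042). The calls of Hdac1 and Tle2 were fragile. Hdac1 lost its call without any single library (adjusted p of 0.057 to 0.19), and Tle2 without each library except library 2 labelled Zfp292-OE (0.082 to 0.36). The 2 uncalled genes with the smallest p were Eya3, a phosphatase partner of Six3 relatives, at -0.61 (adjusted p = 0.075), and Pou3f2, a POU factor that works with Sox2, at 0.74 (adjusted p = 0.094). Gmnn and Hdac2 lost their calls only without a control library, as did nearly every gene: limma then called 1 gene in all.

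Among the closest relatives of the members, 13 of 15 paralogues were tested, where 17.4% of all genes tested were called. Of these paralogues 0 rose, 1 fell and 12 did not pass. The exception was Nr2e3, the photoreceptor nuclear receptor that represses cone genes in rods, and a paralogue of Nr2e1. Nr2e3 had 119743 and 91600 in control and 27160, 33459 and 37204 in the libraries labelled Zfp292-OE, a log2 fold change of -1.70 (SE 0.18, limma adjusted p = 0.00048), beside 0.48 for Nr2e1. Sox1 (-2.80, adjusted p = 0.091) and Meis3 (-0.60, adjusted p = 0.13) did not pass. Pax2, the optic stalk relative of Pax6, and Sox10, of oligodendrocyte and neural crest lineages, were below the filter, with no value above 25.4.

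Other regulators of retinal progenitors included called genes in both directions. In this list of 20 genes 7 rose, 2 fell and 11 missed the threshold, where 17.4% of all genes tested were called. The median over the list was 0.47 on the log2 scale. As for other genes, these limma calls were lost without control library 1 and likewise without control library 2, when the spread comes from the other group alone and the lone control is assumed to vary like it. The log2 fold changes of Hes1 were then 1.05 and 1.30, and those of Ccnd1 1.68 and 1.59. The Notch effectors Hes1 (1.18) and Hes5 (1.17), the bHLH inhibitors Id1 (0.92) and Id2 (1.29), the G1 cyclin Ccnd1 (1.64) and the growth factor Fgf15 (1.54) rose. Prox1, of horizontal and other postmitotic cells as well as progenitors, fell by 0.88. Zic5 (0.68, adjusted p = 0.060) and Id3 (0.40, adjusted p = 0.095) did not pass. Whether these genes differ from the members in their response was not tested.

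Promoter sequence was read for the members because Notch effectors and cycling genes rose while the members did not; this search was chosen after the values were seen. RefSeq windows of 250 bases before to 50 after a start site (GRCm38.p6) matched 8 of the 10 members, in 10 windows, with Rax and Sox9 unmatched. The E2F motif of cell cycle genes was searched on both strands as TTTCCCGC, TTTGGCGC, TTTCGCGC or TTTGCCGC, forms whose matches can overlap each other. It was in 0 of the 8 members, in 4 of 11 matched genes of the cycling list and in 2.26% of all 32851 windows. The core of the site bound by RBPJ, the transcription factor of the Notch pathway, was searched on both strands as TGGGAA, which shares no full match with the E2F forms. It was in 3 of the 8 members, Lhx2 and Meis1 among them, in 4 of 11 cycling genes and in 25.6% of all windows. For both motifs the percentages count single windows, whereas a member or cycling gene counts if any of its windows holds the motif.
The sites are shown 5′ to 3′ on the strand of the gene, with the match in capitals, the sites of Lhx2 and Meis1 first and then 2 E2F matches of cycling genes for contrast.
Lhx2, plus strand, chr2:38339040-38339067: cagccccacctTGGGAAagagaggcgca
Lhx2, second window, plus strand, chr2:38351288-38351315: tcgcctttggtTGGGAAcacaccccggg
Meis1, minus strand, chr11:19019199-19019219: gcttTGGGAAgagaggctgga
Mcm6, minus strand, chr1:128359734-128359763: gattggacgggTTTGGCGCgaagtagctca
Cdk1, minus strand, chr10:69353025-69353054: tttccgctcccTTTCGCGCtctgcgctccc
Counted in bases from the start site, with negative numbers before it, the matches lie at -230 and -9 in Lhx2, -246 in Meis1, -47 in Mcm6 and -131 in Cdk1. The Meis1 stretch is shorter because its window begins there, and Mcm6 also holds E2F matches at -110 and -106. Mcm6, a subunit of the replicative helicase, and Cdk1, the mitotic kinase, rose by log2 fold changes of 2.37 and 2.40, beside 0.27 and 0.36 for Lhx2 and Meis1. All 12 genes of the cycling list rose, and 4 of the 11 matched ones held an E2F form. A match describes these letters only, and its part in any level was not tested.

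Transcripts that overlap the members could share their reads, since whether counting used strand is not given in the sources used here. In GENCODE M21, 7 members overlap at least 1 other annotated gene, 18 in all, and 4 of these have a row in the table. The antisense Six3os1 had 34860 and 39020 in control and 36859, 36278 and 35568 in the libraries labelled Zfp292-OE, with a log2 fold change of -0.03 (interval -0.32 to 0.26). Sox2ot, on the same strand as Sox2 and spanning it, had 0.34 (interval -0.11 to 0.80). Pax6os1 had 0.08, and 4930447C04Rik, antisense to Six6, had 0.03. None of the 4 passed in limma (adjusted p of 0.27 to 0.95). Reads of a member and its antisense partner cannot be told apart without strand, nor those of Sox2 and Sox2ot where their exons overlap.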

How the data were processed

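Messenger RNA of sorted retinal cells was sequenced in 2 control and 3 Zfp292-OE libraries. The authors deposited 1 normalised signal per gene and library. It behaves as a whole number of reads times a constant of the library, since 100% of values gave whole reads within 1e-06. GRCm38 and mm10 are the builds named, per the submitters' processing notes; for the aligner, the counter and the scaling method, names were not given in the sources used here. Libraries were grouped by title, and 0 columns belonged to other samples. Genes with a mean of at least 10 entered limma 3.58.1 with a mean trend, under R 4.3.3, as log2(value + 1), so fold changes of low genes are understated. Recovered whole reads were tested with edgeR 4.0.16 and DESeq2 1.42.0. Members had at least 1830 reads in every library. Gene spans come from RefSeq GRCm38.p6 (24570 identifiers matched). The members and lists were chosen with earlier results of these data known, so none of their counts is independent evidence. Named genes were all members, the called genes (at most 8 by smallest p, of which 1 is not reported here) and the 2 uncalled genes of smallest p in each related list; Mki67, Mcm6, Cdk1, Cryaa, Rpe65, Pax2, Sox10 and the overlapping transcripts were added after their values were seen. The scripts were tested on simulated data.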

Additional observations from a re-analysis of the deposited data

How the results depend on the processing

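In all 16 alternatives 0 members were called higher and 0 lower, and 143 of 160 values of single members kept their sign. Where only 1 control library was left, limma called almost no gene at all, so the missing member calls there carry no weight. No value that turned sign was past the threshold. These were Rax (-0.27), Six6 (-0.08) and Six3 (-0.0023) after quantile normalization, Rax (-0.16), Sox2 (-0.02) and Six6 (-0.01) with equal library totals, and Pax6 (0.05), Rax (-0.01) and Sox9 (0.01) with a replicate block. Leaving out 1 library at a time gave -0.17 to 0.05 for Pax6, -0.02 to 0.14 for Rax, -0.14 to 0.54 for Sox2 and -0.43 to 0.39 for Sox9. The median of the members was -0.04 after quantile normalization and -0.01 with equal totals, and 0.03 to 0.34 when a library was left out. Cofactors called numbered 2 after quantile normalization. With a library left out they numbered 0 to 4, paralogues 0 to 2, other progenitor regulators 0 to 9, all genes 1 to 2352, and pairs without overlap 2 to 4. Same-numbered libraries did not deviate together (correlations of -0.039 and -0.027), and the labels do not say that numbers mark pairs. The replicate block gave 2498 genes called and changed no call of a member. Its log2 fold changes equal those without library 3 labelled Zfp292-OE, which has no control of its number. The turned signs of Pax6, Rax and Sox9 thus count in both alternatives. For members, counting noise is small at these depths, and the number of libraries limits the precision.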

Other observations

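Otx2, a homeobox gene of photoreceptor and bipolar precursors that belongs to the wider eye field network, did not pass in limma (log2 fold change 0.17, adjusted p = 0.67) but varied within both groups. It had 156329 and 110863 in control and 117569, 134300 and 203715 in the libraries labelled Zfp292-OE, the highest being library 3, which also had the lowest Pax6 and the highest Rax. Foxn4, a forkhead factor of progenitors biased to amacrine and horizontal fates, had 222 and 357 in control against 465, 769 and 505, with no overlap between the groups and an adjusted p of 0.13. The pigment cell regulator Mitf had 100 and 191 in control and 235, 237 and 98.4 in the others, with a log2 fold change of 0.35 (adjusted p = 0.74). These genes were chosen after their values were seen.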
